A study of Rattus norvegicus with 9 samples.

Results

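The receptor for follicle-stimulating hormone, the stimulatory G protein and protein kinase A were followed through 9 genes: Fshr, Gnas, Prkaca, Prkacb, Prkar1a, Prkar1b, Prkar2a, Prkar2b and Akap12. Every array probe was taken whose gene name, in the files of replicate 1 or replicate 3, was one of these symbols. This gave 17 probes of 41012 on the array, which carries 35358 gene names or identifiers in all. A probe is said here to be detected on an array where the scanner software marked it as well above background, and 16 of the 17 were among the 26600 probes tested because they were detected on 2 or more arrays of some age. Sertoli cells, the somatic cells that nourish germ cells, had been isolated from rat testes at 5, 12 or 60 days of age, with 3 arrays per age. Before RNA extraction every culture had 4 days in defined medium followed by 11 h of pulsed treatment with 50 ng/ml oFSH and 1e-07 M testosterone. No culture without hormones was among the 9 arrays, so each value is a level in hormone-treated cells. The labels name no strain and do not say whether replicates came from separate animals or cultures. The p-values therefore measure only the spread between these samples, which may be technical.

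FSH binds a receptor that in the testis is made by Sertoli cells, and the occupied receptor activates Gs, whose alpha subunit is encoded by Gnas. Gs turns on adenylyl cyclase, and the cAMP made binds the regulatory subunits of protein kinase A (Prkar1a, Prkar1b, Prkar2a, Prkar2b), which then release the active catalytic subunits (Prkaca, Prkacb). A-kinase anchoring proteins such as Akap12 hold the kinase at chosen places in the cell.

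Levels are given as the log2 signal of a probe minus the 75th percentile of its array, so that a value of 0 means a signal equal to that percentile. Levels of different probes are not comparable, because each probe binds its target with its own strength. On each array 49.1% to 63.0% of probes were detected. A change counts as called, and the words rose and fell are used of it, where limma's moderated test over all 26600 probes gave an adjusted p under 0.05. At that threshold 3136 probes were called at 12 against 5 days (1564 higher and 1572 lower), 6451 at 60 against 12 days (3171 and 3280) and 9136 at 60 against 5 days (4572 and 4564). That fit does not use the replicate number, which is shared by the arrays of a slide. With the replicate number as a block 4686, 8861 and 11642 probes were called in these 3 comparisons. Scaling on spike-in controls moved all values together: the median probe then changed by -1.23 at 12 against 5 days, 0.81 at 60 against 12 days and -0.40 at 60 against 5 days. That scale differed between slides, since the spike-in level relative to the 75th percentile changed by 2.20, 0.0047 and 1.67 on slides 1, 2 and 3 at 12 against 5 days, and by 1.14, -0.28 and 0.17 at 60 against 5 days. The SE of every member change on it was 0.88, so its p-values reflect a spread common to the probes and not that of each probe. On that scale the calls split into 98 higher and 2319 lower, 2961 higher and 424 lower, and 1824 higher and 2705 lower in the same 3 comparisons.

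Of the 16 probes, 2 were called at 12 against 5 days, where 11.8% of all probes were called: 1 was higher (5.88% of all probes) and 1 lower (5.91%). None was called at 60 against 12 days by limma, where 24.3% of all probes were (11.9% higher and 12.3% lower), although 4 had an unadjusted p under 0.05. With the replicate number as a block, 2 were called in that comparison. At 60 against 5 days 4 of the 16 were called, against 34.3% of all probes: 1 was higher (17.2% of all probes) and 3 lower (17.2%). Over any of the ages 5 of the 16 were called by the F-test, against 35.4% of all probes. Their median log2 change at 60 against 5 days was -0.25, beside -0.05 over all probes tested.

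**Figure D1:**
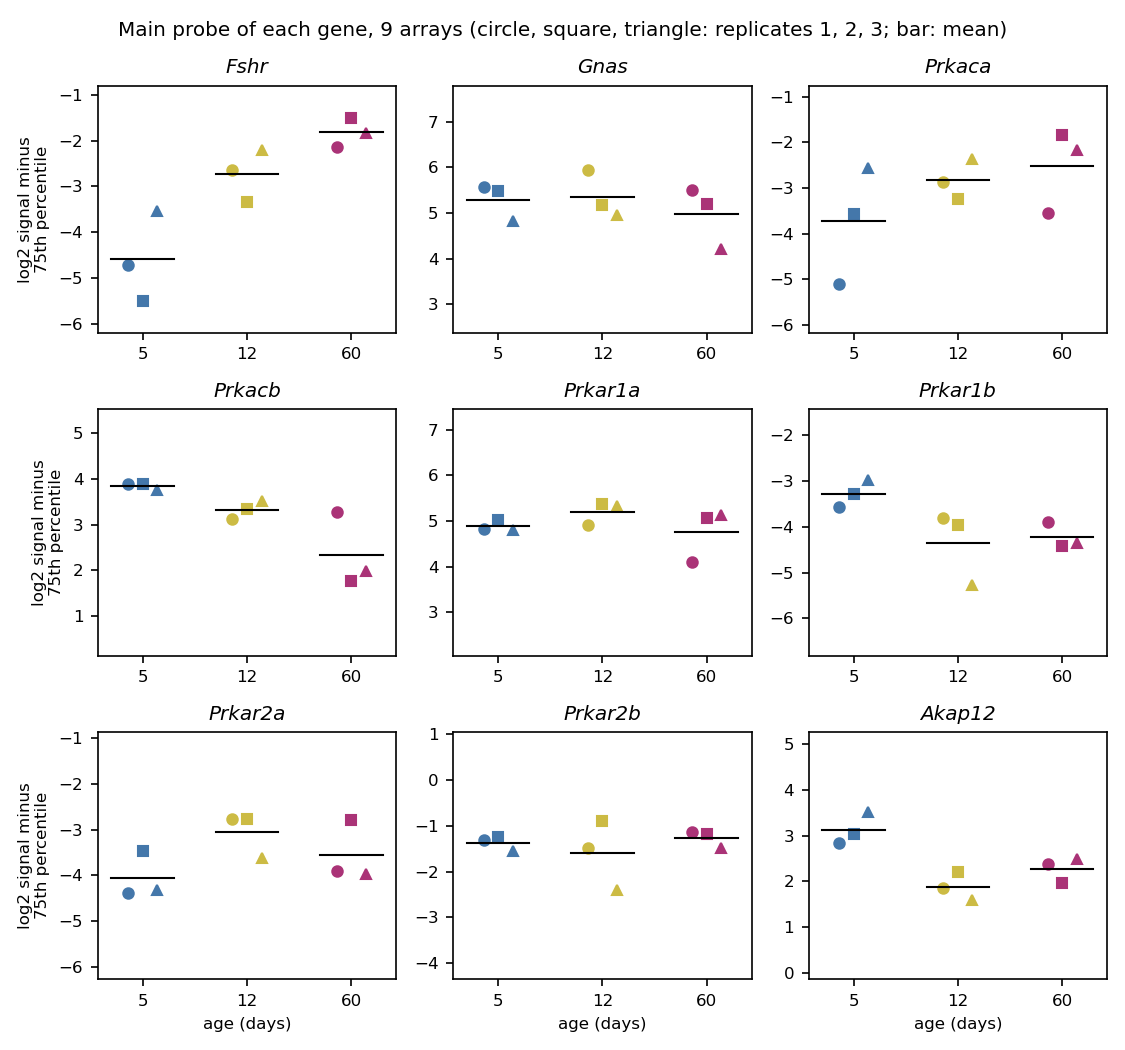
Log2 signal minus the 75th percentile of the array (vertical axis) by age in days (horizontal axis) for the main probe of each of the 9 genes; symbols are arrays, bars are means of 3, and every panel spans the same number of log2 units. Fshr climbed with age, Prkacb was lowest at 60 days, Akap12 was highest at 5 days, and the ages overlapped for Gnas, Prkaca, Prkar1a, Prkar2a and Prkar2b.

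Fshr, the receptor through which the hormone acts, was called higher at 12 and at 60 days than at 5 days. Its single probe lies on chromosome 6 in the rn4 build (chr6:12926190-12926249, minus strand) and its sequence, which the Fshr values rest on, is shown in lower case.
Fshr probe: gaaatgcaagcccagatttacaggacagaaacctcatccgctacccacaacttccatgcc
The 3 arrays at 5 days read -4.73, -5.51 and -3.53, those at 12 days -2.63, -3.33 and -2.21, and those at 60 days -2.14, -1.49 and -1.82. No array of an age overlapped the arrays of another age, and the 5-day arrays were the lowest. Fshr rose by 1.87 ± 0.50 (log2, SE) at 12 against 5 days, a 3.64-fold difference (limma adjusted p = 0.0358). At 60 against 5 days it rose by 2.78 ± 0.50, or 6.85-fold (limma adjusted p = 0.00138). The difference at 60 against 12 days was 0.91 ± 0.50 and was not called (limma adjusted p = 0.228). Within each slide, which carried 1 array of every age, the 60-day array exceeded the 5-day array by 2.59, 4.02 and 1.72.

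The probe was detected on 1 of 3 arrays at 5 days and on all 3 at the later ages, so the size of the change depends on signals near the detection limit at 5 days. On the spike-in scale Fshr changed by 0.58 at 12 against 5 days and was not called (limma adjusted p = 0.608), while the median of all probes changed by -1.23. At 60 against 5 days Fshr changed by 2.43 on that scale and was called (limma adjusted p = 0.0356), with the median of all probes at -0.40. The call at 12 against 5 days was lost when any one of 5 arrays was left out (5 days replicates 1 and 2, 12 days replicates 1 and 3, 60 days replicate 2), with limma adjusted p from 0.0521 to 0.137. The call at 60 against 5 days held without any single array, with a limma adjusted p of at most 0.00817. With normexp background correction on the 6 arrays of replicates 1 and 3 the change at 60 against 5 days was 0.39 and was not called (limma adjusted p = 0.160). That correction adds an offset of 50 intensity units and was followed by quantile normalization. The offset shrinks the log2 changes of dim probes, so the size of this change is not comparable with that of the main fit.

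In bulk samples fewer cells of a type and less RNA per cell cannot be told apart, and cell type markers moved strongly with age. Sertoli markers rose with Fshr: of 18 tested genes 12 were higher and none was lower at 60 against 5 days, with a median log2 change of 2.33. Their median level lay between 3.42 and 3.62 at 60 days, against -0.95 to -0.59 at 5 days. Summed over the list, the log2 level lay between 8.96 and 9.14 at 60 days, against 6.92 to 8.16 at 5 days. Markers of meiotic and later germ cells were also higher at 60 days. All 15 spermatocyte markers were higher at 60 against 5 days, and their median log2 change was 6.10 with dim genes taken at their bound. Sycp3, a protein of the synaptonemal complex in meiotic cells, was at least 254-fold higher at 60 than at 5 days. At 5 days 13 of the 15 spermatocyte markers were detected on none of the arrays. Of 15 spermatid markers 14 were higher at 60 against 5 days, and 10 were detected on no 5-day array. The summed log2 level of the spermatocyte list lay between 6.77 and 7.67 at 60 days, against -0.72 to -0.33 at 5 days. For the spermatid list it lay between 5.05 and 6.05 at 60 days, against 2.00 to 2.67 at 5 days. At 12 against 5 days 10 of the 15 spermatocyte markers rose and none fell (median log2 change 2.64 with dim genes at their bound), and none of the spermatid markers was called by limma. Of the 18 Sertoli markers 11 rose and none fell at 12 against 5 days, with a median of 2.18, and on the spike-in scale none was called there and 7 were higher at 60 against 5 days. Among the other lists, 4 of 7 spermatogonial markers rose and 2 fell at 60 against 5 days, 1 of 8 Leydig cell markers rose and 5 fell, and 1 of 8 endothelial markers rose and 6 fell. The part of these markers in the Fshr result was not tested.

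**Figure D2:**
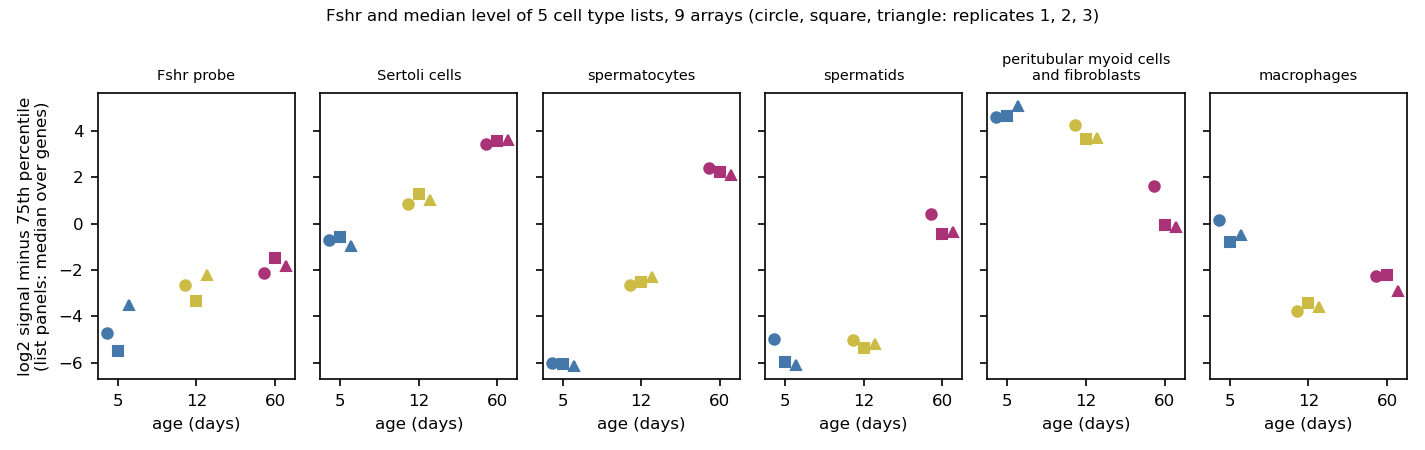
Fshr level (first panel) and the median level of 5 marker lists (other panels) on each of the 9 arrays, as log2 signal minus the 75th percentile, by age in days; circles, squares and triangles are replicates 1, 2 and 3. Sertoli, spermatocyte and spermatid markers were highest at 60 days and peritubular markers lowest, and the 60-day array of replicate 1 held more peritubular signal (1.64) than the other two (-0.05 and -0.13).

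Known regulators of Fshr transcription did not share one pattern. Of 11 tested, 2 rose and 2 fell at 60 against 5 days, where 17.2% of all probes rose and 17.2% fell, and the list's median log2 change was 0.42. Gata1, Gata4, Wt1 and Nr5a1 of these genes also belong to the Sertoli list. Gata1, a zinc finger factor of Sertoli cells, was at least 12.1-fold higher at 60 than at 5 days. Nr5a2, an orphan nuclear receptor, was also called higher (limma adjusted p = 0.00408) but was detected on no 5-day array. E2f1, a factor of the cell cycle, fell by 1.80 ± 0.34 (limma adjusted p = 0.00166) and Tcf3, an E-box binding factor, fell by 1.37 ± 0.42 (limma adjusted p = 0.0259). With the replicate number as a block 4 of the 11 rose and 2 fell, and on the spike-in scale 1 was higher and none was lower. Usf1 and Usf2, which bind the E-box CACGTG and are known activators of the rodent Fshr promoter, changed by 0.21 (limma adjusted p = 0.730) and 1.05 (limma adjusted p = 0.145) at 60 against 5 days and were not called.
The 250 bases before the Fshr start in RefSeq's GRCr8 table (chr6:10952079-10952328, plus strand) are shown because those factors are in the list above, with the CACGTG motif in capitals.
Fshr upstream: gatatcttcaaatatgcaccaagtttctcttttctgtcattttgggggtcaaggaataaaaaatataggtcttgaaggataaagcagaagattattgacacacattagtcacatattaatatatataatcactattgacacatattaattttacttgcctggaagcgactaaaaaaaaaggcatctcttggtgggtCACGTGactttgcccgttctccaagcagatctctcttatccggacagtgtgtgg
The motif CACGTG, the same on both strands, begins 54 bases before the start and is found in 6.42% of the 33469 RefSeq promoter windows of 300 bases. Among the members it was found in the windows of Fshr and Prkar1a. The full cAMP response element TGACGTCA, also the same on both strands, was in no member's window, and 1.83% of all windows hold it. Its first letters TGACG, searched on both strands and contained in the full element, were found in the windows of Prkaca, Prkacb and Gnas and in 21.2% of all windows. The table held windows for 8 of the 9 members, and several for Gnas and Prkar1b. A match describes the letters only.

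Gnas, which encodes the alpha subunit of Gs, was measured by 2 probes, and neither was called in a comparison of 2 ages as fitted here. The brighter probe, placed on an unordered part of chromosome 3 and named for the extra-large Gs product of the same locus in the files of replicate 1, read 5.56, 5.49 and 4.82 at 5 days, 5.95, 5.18 and 4.96 at 12 days and 5.50, 5.20 and 4.21 at 60 days. The ages overlapped throughout, and the change at 60 against 5 days was -0.32 ± 0.44 (limma adjusted p = 0.610). The other Gnas probe, printed in 10 spots on every array and with no position in the files, read -3.09, -2.21 and -1.03 at 5 days, -0.03, -1.16 and 0.50 at 12 days and -2.21, -1.53 and -1.94 at 60 days. Its 3 readings at 12 days lay above all 3 at 60 days and overlapped those at 5 days. The difference was 1.88 ± 0.56 at 12 against 5 days (limma adjusted p = 0.0549) and -1.67 ± 0.56 at 60 against 12 days (limma adjusted p = 0.0530). Both changes were called with the replicate number as a block, at limma adjusted p of 0.0245 and 0.0247. Without the block the change at 60 against 12 days was also called with median scaling (limma adjusted p = 0.0498), among probes detected on all 9 arrays (0.0480) and with only these ages fitted (0.0359). It was called when replicate 1 or 3 at 5 days or replicate 2 at 12 days was left out, with limma adjusted p from 0.0245 to 0.0377. The change at 12 against 5 days was called without replicate 3 at 5 days (limma adjusted p = 0.0196) or replicate 2 at 12 days (limma adjusted p = 0.0292). On the spike-in scale both changes were smaller, 0.59 and -0.72, and neither was called. The F-test over ages called this probe without the block as well (limma adjusted p = 0.0387).

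Among the 5 tested probes of catalytic subunits 2 were called at 60 against 5 days, both of Prkacb, where 34.3% of all probes were called. Prkacb, the beta catalytic subunit, was measured by 4 tested probes on the minus strand of chromosome 2. The 2 nearest the 3′ end by genomic position were lower at 60 than at 5 days. Distances between Prkacb probes are given in genomic bases of rn4, and those along the transcript were not worked out. The 3′-most probe (chr2:244946410-244946469) read 3.88, 3.88 and 3.76 at 5 days, 3.12, 3.33 and 3.51 at 12 days and 3.27, 1.77 and 1.98 at 60 days. All 60-day arrays lay below all 5-day arrays, and the 60-day array of replicate 1 was the highest of its age. This probe fell by 1.50 ± 0.41 at 60 against 5 days, 2.83-fold (limma adjusted p = 0.0148). Its difference at 60 against 12 days, -0.98 ± 0.41, was not called (limma adjusted p = 0.110). That difference was called without the 60-day array of replicate 1 (limma adjusted p = 0.0102) and without all arrays of replicate 1 (limma adjusted p = 0.0258). The next probe, 1407 bases upstream (chr2:244947817-244947876), read -1.82, -0.71 and -1.64 at 5 days, -2.19, -1.18 and -1.65 at 12 days and -2.47, -3.11 and -2.85 at 60 days. It fell by 1.42 ± 0.41, 2.67-fold (limma adjusted p = 0.0203), and its 60-day arrays also lay below all 5-day arrays. Its difference at 60 against 12 days was -1.13 ± 0.41 (limma adjusted p = 0.0689), and it was called with the replicate number as a block (limma adjusted p = 0.0440).

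The Prkacb probes farther from the 3′ end were not called. The probe 3005 bases upstream of the 3′-most one changed by -0.55 ± 0.43 at 60 against 5 days (limma adjusted p = 0.355). The probe 28333 bases upstream changed by -0.18 ± 0.45 (limma adjusted p = 0.794). Both were dim: the nearer was detected on 2, 2 and 3 of 3 arrays at 5, 12 and 60 days, and the farther on 1, 2 and 2. A probe named Prkacb but placed on chromosome 1 (chr1:186620283-186620341) was detected on no array and was not tested. Its sequence is set beside that of the probe 3005 bases upstream, because the sequences overlap over 41 bases of which 39 are identical. Capitals mark the bases that differ, A27C and A46T, with positions counted from 1 at the 5′ end of the chromosome 2 probe and its base given first.
Prkacb, chromosome 2: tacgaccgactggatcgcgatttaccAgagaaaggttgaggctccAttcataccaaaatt
Prkacb, chromosome 1: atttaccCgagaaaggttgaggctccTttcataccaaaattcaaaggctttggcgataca
Both Prkacb falls were lost on the spike-in scale, where the changes were -1.85 (limma adjusted p = 0.153) and -1.76 (limma adjusted p = 0.182), with the median of all probes at -0.40. Leaving out the 60-day array of replicate 2 also ended the call of the 3′-most probe (limma adjusted p = 0.0686), as did leaving out that of replicate 3 (limma adjusted p = 0.0576). The next probe lost its call without the 5-day array of replicate 2 (limma adjusted p = 0.0900) or the 60-day array of replicate 2 (limma adjusted p = 0.0786) or 3 (limma adjusted p = 0.0541).

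**Figure D3:**
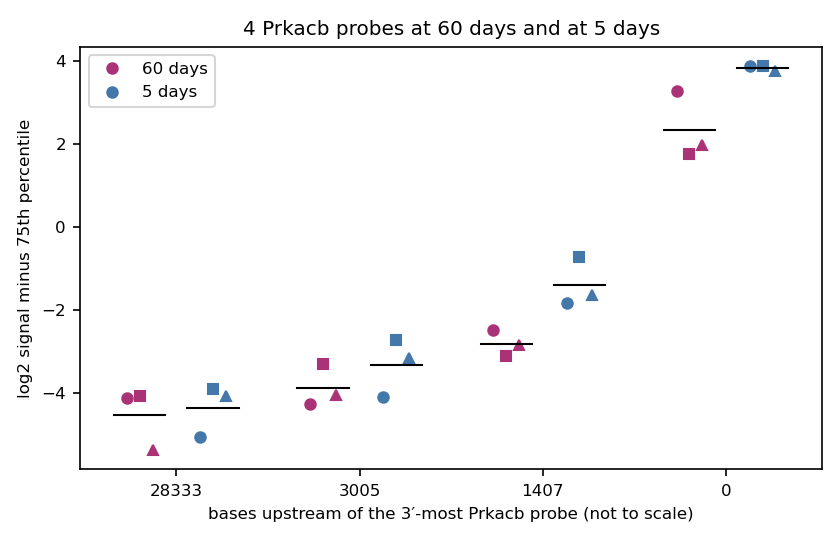
Log2 signal minus the 75th percentile (vertical axis) of 4 Prkacb probes on the 60-day arrays (left of each pair) and the 5-day arrays (right). Probes are ordered by the genomic distance in bases upstream of the 3′-most probe. Circles, squares and triangles are replicates 1, 2 and 3, and bars are means. The groups do not overlap for the probes at 0 and 1407 bases and overlap for those at 3005 and 28333 bases.

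Markers of peritubular myoid cells and fibroblasts moved in the same direction as Prkacb. Of 15 tested, 11 fell and none rose at 60 against 5 days, with a median log2 change of -3.39. Their median level was 1.64 on the 60-day array of replicate 1, against -0.05 and -0.13 on those of replicates 2 and 3, and between 4.60 and 5.08 at 5 days. The summed log2 level of this list lay between 6.79 and 8.90 at 60 days, against 9.66 to 10.53 at 5 days. The part of these cells in the Prkacb result was not tested.

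Prkaca, the alpha catalytic subunit, was not called in any comparison with all 9 arrays. Its single probe (chr19:25847261-25847403, named Prkaca only in the files of replicate 1) read -5.09, -3.56 and -2.55 at 5 days, -2.86, -3.24 and -2.36 at 12 days and -3.54, -1.84 and -2.17 at 60 days. The ages overlapped. The difference at 60 against 5 days was 1.22 ± 0.64 (limma adjusted p = 0.172). It was 0.54 without the 5-day array of replicate 1 and 0.57 in the deposited table, and it reached 1.81 and was called without the 5-day array of replicate 3 (limma adjusted p = 0.0476). With normexp correction on 6 arrays, whose offset shrinks the changes of dim probes, it was 0.11. This probe was printed in 10 spots per array, and on the 5-day array of replicate 1 they spread from 2.26 to 16.6 intensity units, with 1 of the 10 marked as well above background. On the 12-day array of replicate 1 they spread from 23.2 to 996 units around a median of 28.7.

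Among the regulatory subunits, no type I probe was called in any comparison with all 9 arrays. Prkar1a, the widely expressed type I alpha subunit, was measured by 2 probes that were detected on all 9 arrays. The brighter probe read 4.89 ± 0.12 at 5 days, 5.20 ± 0.26 at 12 days and 4.76 ± 0.57 at 60 days (SD, n = 3 each), with a change of -0.12 ± 0.36 at 60 against 5 days (limma adjusted p = 0.825). The second Prkar1a probe read 2.26 ± 0.09, 2.16 ± 0.44 and 2.16 ± 0.47 (SD, n = 3 each) at 5, 12 and 60 days, and its change at 60 against 5 days was -0.11 ± 0.36 (limma adjusted p = 0.850). The files place both probes on chromosome X in rn4 (the brighter at chrX:148642430-148642489), whereas RefSeq's GRCr8 table places Prkar1a on chromosome 10. Which of the copies the probes read was not tested, so the sequence of the brighter probe is given.
Prkar1a probe: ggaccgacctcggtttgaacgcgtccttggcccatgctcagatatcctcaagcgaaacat

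Prkar1b, the type I beta subunit known from neural tissue, read -3.56, -3.29 and -2.97 at 5 days, -3.80, -3.95 and -5.28 at 12 days and -3.89, -4.41 and -4.35 at 60 days. Every array at 12 and at 60 days lay below every array at 5 days. The probe was dim, and it was detected on 3, 2 and 2 of 3 arrays at 5, 12 and 60 days. The difference was -1.07 ± 0.43 at 12 against 5 days (limma adjusted p = 0.152) and -0.94 ± 0.43 at 60 against 5 days (limma adjusted p = 0.115), and neither was called. The difference at 60 against 5 days was called when the 12-day array of replicate 3 was left out (limma adjusted p = 0.0482).

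Of the 3 probes of type II subunits 1 was called at 60 against 5 days, where 34.3% of all probes were. Prkar2a, the type II alpha subunit, read -4.38, -3.48 and -4.33 at 5 days, -2.77, -2.78 and -3.62 at 12 days and -3.91, -2.79 and -3.97 at 60 days. Its difference at 12 against 5 days was 1.00 ± 0.44 and was not called (limma adjusted p = 0.197), and it was detected on 1 of 3 arrays at 5 days. Prkar2b, the type II beta subunit, has 2 probes on chromosome 6, and they gave different calls. The probe at chr6:50235364-50235477 read -1.11, -0.90 and -1.35 at 5 days, -1.91, -1.28 and -0.95 at 12 days and -2.35, -2.35 and -1.91 at 60 days. Its 60-day arrays lay below all arrays at 5 days, and it fell by 1.08 ± 0.35 at 60 against 5 days (limma adjusted p = 0.0340). The other Prkar2b probe, 5′ of it at chr6:50241050-50241109 and the brighter on average, read -1.37 ± 0.15 at 5 days, -1.60 ± 0.76 at 12 days and -1.26 ± 0.19 at 60 days (SD, n = 3 each), with a change of 0.10 ± 0.40 at 60 against 5 days (limma adjusted p = 0.869). The call of the first probe was lost on the spike-in scale (limma adjusted p = 0.322) and without the filter on dim probes (limma adjusted p = 0.0610), and when the array of replicate 1 or 2 at 5 or at 60 days was left out (limma adjusted p from 0.0745 to 0.114).

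Akap12, a scaffold that binds protein kinase A and is also called gravin, was highest at 5 days in both of its probes on chromosome 1. The brighter probe (chr1:35067997-35068056) read 2.85, 3.03 and 3.52 at 5 days, 1.85, 2.20 and 1.60 at 12 days and 2.37, 1.96 and 2.48 at 60 days. All arrays at 12 and at 60 days lay below all arrays at 5 days. It fell by 1.25 ± 0.34 at 12 against 5 days, 2.38-fold (limma adjusted p = 0.0358). The difference at 60 against 5 days was -0.86 ± 0.34 and was not called (limma adjusted p = 0.0720). The second probe (chr1:35065221-35065280) read -0.39, 0.34 and 0.23 at 5 days, -0.81, -0.55 and -1.61 at 12 days and -0.63, -0.66 and -0.69 at 60 days. Its difference at 12 against 5 days was -1.05 ± 0.37 (limma adjusted p = 0.101), with no overlap between these ages. The call of the brighter probe held on the spike-in scale, where the probe changed by -2.54 (limma adjusted p = 0.0443). The median of all probes changed by -1.23 on that scale. The call was lost with quantile normalization (limma adjusted p = 0.0535) and without the filter on dim probes (limma adjusted p = 0.0679). It was also lost without any one 5-day array, the 12-day array of replicate 1 or 3 or the 60-day array of replicate 3, with limma adjusted p from 0.0501 to 0.118. Macrophage markers moved with it: 9 of 12 fell and none rose at 12 against 5 days, and their summed log2 level lay between 1.20 and 1.42 at 12 days, against 2.90 to 3.66 at 5 days. Of 8 Leydig cell markers 4 fell and 1 rose at 12 against 5 days (median log2 change -1.66), and of 8 endothelial markers 2 fell and none rose (median -1.16). The summed log2 level of the Leydig list lay between 2.52 and 3.26 at 12 days, against 4.27 to 5.00 at 5 days. That of the endothelial list went the other way, with 3.22 to 3.99 at 12 days against 2.61 to 3.50 at 5 days. Of the peritubular and fibroblast markers 4 of 15 fell and none rose (median -0.14). Their summed log2 level lay between 9.01 and 9.65 at 12 days, against 9.66 to 10.53 at 5 days. The part of any of these lists in the Akap12 result was not tested.

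**Figure D4:**
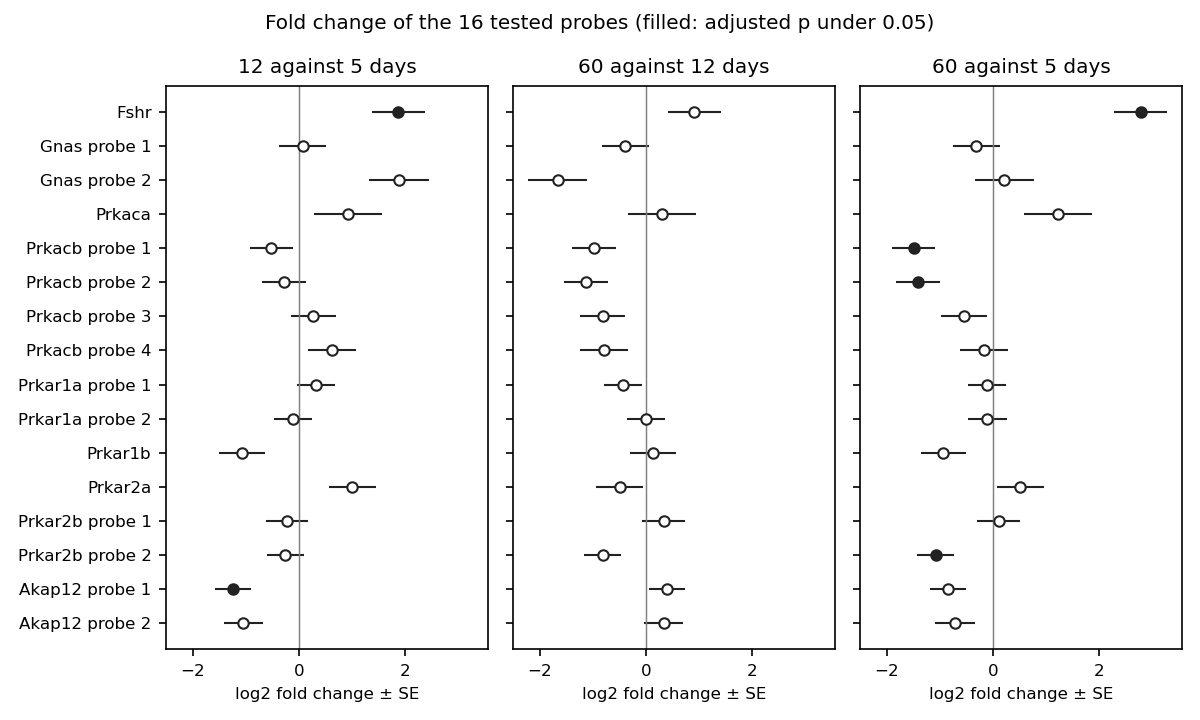
Log2 fold change with its standard error (horizontal axis) of the 16 tested probes (rows, brighter probes of a gene first) in 3 comparisons of ages; filled symbols have a limma adjusted p under 0.05. The filled symbols are Fshr and Akap12 at 12 against 5 days, and Fshr, 2 Prkacb probes and 1 Prkar2b probe at 60 against 5 days.

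Groups that did not overlap were seen for 5 of the 16 probes at 12 against 5 days (28.2% of all probes), 4 at 60 against 12 days (39.8%) and 7 at 60 against 5 days (46.9%).

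Whether the balance between subunit isoforms changed with age was asked for 5 pairs of main probes, as the difference of their log2 levels on each array. The exact permutation test took the spread between the means of all ages, so its p belongs to no single comparison of ages. The difference between probes has no absolute meaning, and only its change between ages does. Prkaca minus Prkacb was -7.58 ± 1.33 at 5 days, -6.14 ± 0.38 at 12 days and -4.86 ± 1.72 at 60 days (SD, n = 3 each). It changed by 2.72 at 60 against 5 days. Over all ages its exact permutation p was 0.107, adjusted to 0.268 over the 5 pairs. Prkar2a minus Prkar2b was -2.69 ± 0.42 at 5 days, -1.46 ± 0.37 at 12 days and -2.29 ± 0.61 at 60 days (SD, n = 3 each), with an exact permutation p of 0.0786, adjusted to 0.268. For Prkar1a minus Prkar1b, Prkar2a minus Prkar1a and Prkar2b minus Prkar1a the adjusted exact permutation p was 0.280, 0.353 and 0.486. No pair passed the threshold, and the smallest p the 280 divisions of the arrays allow is 0.00357. Permuting ages within each replicate number gave adjusted exact permutation p of 0.208 to 0.222. With other probes of these genes 9 further pairs could be formed, and their exact permutation p, not adjusted, ran from 0.0464 to 0.654. The smallest was for the other Prkar2b probe against Prkar1a, a balance that changed by -0.96 in place of 0.23 at 60 against 5 days. The same Prkar2b probe against the second Prkar1a probe changed by -0.97 there (exact permutation p over all ages = 0.104). Prkar2a minus that Prkar2b probe changed by 1.59 in place of 0.40 (exact permutation p over all ages = 0.129).

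Probes of the same gene were compared in the same way, a comparison chosen after seeing the data. None of the 7 pairs of a second probe and the main probe of its gene passed the threshold after adjustment. The smallest adjusted exact permutation p was 0.213, shared by the Prkacb probe 28333 bases upstream and the second Prkar1a probe. The 2 called Prkacb probes differed from each other by -5.23 ± 0.58 at 5 days, -4.99 ± 0.43 at 12 days and -5.15 ± 0.52 at 60 days (SD, n = 3 each; exact permutation p = 0.829). The Akap12 probes differed by -3.07 ± 0.33, -2.87 ± 0.29 and -2.93 ± 0.29 at 5, 12 and 60 days (SD, n = 3 each; exact permutation p = 0.657). The second Prkar2b probe moved by -1.18 relative to the main probe at 60 against 5 days (exact permutation p over all ages = 0.175).

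The genes whose level ran most like that of a member over the 9 arrays were found by Pearson correlation with the main probe. The arrays share slides, scaling and cell makeup, so these are descriptions. The closest to Fshr were Ptprh (0.976), Lama1 (0.971) and C20h6orf136 (0.968), all called higher at 60 against 5 days. The closest to Prkacb were Tfpi2 (0.982), Itga5 (0.981) and Entpd1 (0.975), all called lower at 60 against 5 days. For Akap12 they were Gfra1 (0.936), Ptpra (0.934) and Armcx6 (0.927). For Prkaca they were Pef1 (0.979), Kat2a (0.979) and Scarb1 (0.977), and for Gnas Setsip (0.963), C18h18orf21 (0.949) and Dync1i2 (0.943). The closest to Prkar1a were Rab23 (0.975), Hexim1 (0.954) and Frmd4b (0.941), and to Prkar1b Arhgap28 (0.945), Inpp5b (0.942) and Tubb2b (0.927). For Prkar2a they were Dnajc13 (0.964), Ube3c (0.960) and Fbxw11 (0.953), and for Prkar2b Gid8 (0.968), Atp5f1a (0.967) and Taf13 (0.963).

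Other genes of the cAMP pathway were counted by the brightest tested probe of each gene at 60 against 5 days, where 17.2% of all probes rose and 17.2% fell. Of 8 adenylyl cyclases, the enzymes that Gs turns on, 2 rose and 6 fell, with a median log2 change of -2.09 (-1.73 with dim genes at their bound). Adcy2 fell by 7.36 ± 0.50 (limma adjusted p = 2.137e-06) and Adcy6 by 3.32 ± 0.32 (limma adjusted p = 1.838e-05). Adcy10, the soluble cyclase that is not driven by Gs and is abundant in germ cells, was at least 21.5-fold higher at 60 than at 5 days. Of 12 phosphodiesterases that degrade cAMP, 4 rose and none fell. Pde4b rose by 3.74 ± 0.63 (limma adjusted p = 0.000852) and Pde4d by 2.58 ± 0.38 (limma adjusted p = 0.000315), and Pde11a was at least 15.6-fold higher at 60 than at 5 days. With the replicate number as a block 5 rose and 1 fell.

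Among 8 kinase inhibitors and other cAMP effectors, 1 rose and 2 fell. The riser was Pkib, an inhibitor of the free catalytic subunit, by 4.29 ± 0.46 (limma adjusted p = 3.841e-05). Rapgef3, the cAMP-activated exchange factor Epac1, was at least 3.98-fold lower at 60 than at 5 days, and Bves, a membrane protein that binds cAMP, at least 3.82-fold lower. Of 20 anchoring proteins other than Akap12, 9 rose and 1 fell. Akap3, a protein of the sperm fibrous sheath, rose by 5.04 ± 0.34 (limma adjusted p = 2.124e-06), and Akap4, another, was at least 1.55-fold higher at 60 than at 5 days. Akap5 rose by 2.46 ± 0.49 (limma adjusted p = 0.00250). Akap1, which anchors the kinase at mitochondria, fell by 2.80 ± 0.38 (limma adjusted p = 0.000188). Germ cell markers rose in the same comparison, as given with Fshr, and their part in these values was not tested. Akap3 and Akap4 are themselves members of the spermatid list. On the spike-in scale 2 of the anchoring proteins were higher and 1 was lower, and with the replicate number as a block 9 were higher and 2 lower.

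**Figure D5:**
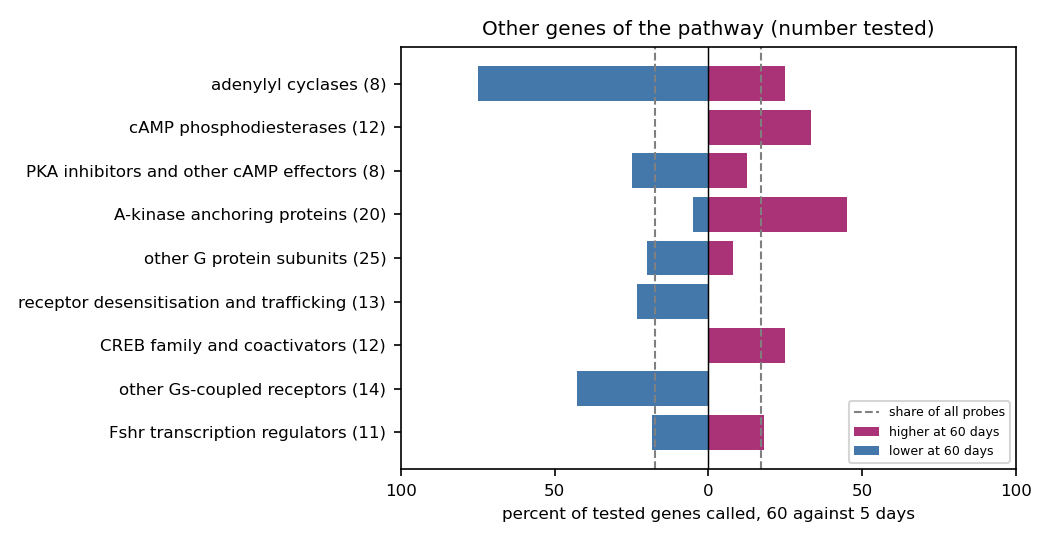
Percent of the tested genes of 9 pathway lists called higher at 60 than at 5 days (right of 0) or lower (left of 0), with the number tested in brackets; dashed lines mark the share of all probes called each way (17.2%). The longest bars are the falls of 6 of 8 adenylyl cyclases and 6 of 14 other Gs-coupled receptors and the rises of 9 of 20 anchoring proteins.

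The remaining lists described the receptor's surroundings. Of 25 other G protein subunits 2 rose and 5 fell, among them the gamma subunits Gng8, by 5.00 ± 0.50 (limma adjusted p = 2.251e-05), and Gng11, by 4.79 ± 0.46 (limma adjusted p = 1.667e-05). Of 13 genes of receptor desensitisation and trafficking 3 fell and none rose, and Grk5, a receptor kinase, fell by 2.77 ± 0.32 (limma adjusted p = 5.472e-05). Of 12 genes of the CREB family and its coactivators, some of which carry the kinase's signal to promoters, 3 rose and none fell. These were Creb1 (1.17 ± 0.32, limma adjusted p = 0.0146), Crem (1.07 ± 0.31, limma adjusted p = 0.0193) and Creb3 (1.44 ± 0.32, limma adjusted p = 0.00491), and none of the list was called on the spike-in scale. The median log2 change of the whole list was -0.24, or -0.04 with dim genes at their bound. Of 14 other Gs-coupled receptors that could be tested, 6 fell and none rose. Markers of peritubular cells (11 of 15), endothelium (6 of 8) and Leydig cells (5 of 8) fell in the same comparison, and their part in these values was not tested. Htr7, a serotonin receptor, was at least 16.3-fold lower at 60 than at 5 days. Pth1r, the parathyroid hormone receptor, fell by 4.05 ± 0.41 (limma adjusted p = 2.567e-05) and Adora2b, an adenosine receptor, by 3.17 ± 0.41 (limma adjusted p = 0.000143). A further 19 receptors of that list did not pass the filter. With the replicate number as a block 2 CREB family genes also fell. Of the other Gs-coupled receptors 8 fell and 1 rose with the block, and of the other G protein subunits 7 fell and 2 rose.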

How the data were processed

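Total RNA was primed with oligo-dT, amplified, labelled with Cy3 and hybridised to one-colour rat arrays, per the labels' protocols. Per the submitters' processing notes the scans went through Agilent Feature Extraction, in version 9.5.3.1 (replicate 1) or 10.5.1.1 (replicates 2 and 3), per the file headers. The authors deposited a processed signal per spot, which is a background-subtracted intensity, and arrays were not scaled to each other. The authors' deposited series table holds log2 values that equal the log2 processed signal minus the array's 75th percentile within 0.01 for at least 99.77% of probes. An oligo-dT label reads mostly the 3′ end of transcripts.

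Here log2 signals were averaged over unflagged repeat spots and scaled to the 75th percentile (150 to 437 intensity units), and 254 probes with an outlier flag were left out. A mean per age was fitted with limma 3.58.1 in R 4.3.3, with Benjamini-Hochberg adjustment over 26600 probes, and the fit was tested on simulated data. The main probe of a gene is the tested one with the highest mean. Dim genes are bounded from each array's lowest signal well above background (written as at least N-fold). Symbols came from RefSeq (11103 probes by accession, 5607 by symbol, 3733 by synonym) and 20569 probes kept the file's name. Probe positions are rn4, as the files of replicate 3 give them, and no annotation of that build was used. Sf1 was dropped from the list of Fshr regulators because the symbol also names a splicing factor. The genes named are all member probes, the 3 genes nearest in pattern to each main probe, and up to 5 called genes of a list. Members and lists were chosen with earlier results of these data known. The replicate number is also the slide. Arrays sharing a number deviated together from their age means (r = 0.166 to 0.612, and 0.095 or less for different numbers). The main fit has no block, so its SEs and p-values do not use this pairing. The blocked fit is given for each member call that it changes, and for some lists. At 60 against 5 days it called 14 of 18 Sertoli markers higher and 1 lower. It called 14 of 15 peritubular and fibroblast markers lower and none higher there. The block also changed list counts for which only the main fit is given. The number of arrays limits precision. Alternatives covered scaling, background, filter, probes, the block and the arrays left out. Python 3.11.15, pandas 2.3.3, numpy 2.4.6 and matplotlib 3.10.9 were used.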

Additional observations from a re-analysis of the deposited data

How the results depend on the processing

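The directions of the called member changes were the same under every alternative run, and their calls were not. On the spike-in scale 1, 0, 1 and 0 of the 16 member probes were called at 12 against 5, 60 against 12 and 60 against 5 days and over any age, in place of 2, 0, 4 and 5. Over all probes that scale gave 3385 calls at 60 against 12 days, 4529 at 60 against 5 days and 5989 over any age. Normexp correction with its offset of 50, possible on 6 arrays, called none of the member probes in any comparison. It called 422, 1583, 3343 and 2717 of all probes (limma) at 12 against 5, 60 against 12, 60 against 5 days and over any age. With probes well above background on all 9 arrays only, 1651, 3600, 5047 and 5237 probes were called, and 1 and 1 member probes at 12 against 5 and 60 against 12 days. This leaves out Fshr by construction. Without a filter 0 member probes were called at 12 against 5 days and 1 over any age. Quantile normalization called 1 and 3 there, and median scaling 1 at 60 against 12 days and 3 over any age. One probe per gene left 2 at 60 against 5 days and 3 over any age. Fitting only the 2 ages compared gave 0 at 12 against 5 days and 1 at 60 against 12 days. The replicate block called 2 at 60 against 12 days, 4686, 8861, 11642 and 12455 probes in all, and changed no other member call than those given beside the results, apart from the Prkar2b probe over any age (limma adjusted p = 0.0420 in place of 0.0685). The balance of isoforms had 0 of 5 pairs past the threshold with the deposited table and with permutation within replicate numbers. Without a replicate number the smallest p that 15 divisions allow is 0.0667, so no pair could pass. Leaving out 1 array or 1 replicate number gave 930 to 3421, 3037 to 6444, 5510 to 9188 and 5168 to 9139 calls over all probes, and 0 to 3, 0 to 1, 1 to 5 and 0 to 4 member calls. The lowest counts over all probes came without replicate 2. The cause of these losses was not tested. Depth cannot be given for arrays. Signal over background limits Fshr and Prkaca at 5 days, Prkar2a at 5 and 12 days and Prkar1b at 12 and 60 days. It also limits the Prkacb probes far from the 3′ end.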
